A study of Mus musculus with 66 samples.

Results

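The genes described here encode the aminoacyl-tRNA synthetases, the enzymes that join each amino acid to its tRNA. They were chosen by gene symbol: a single capital letter followed by ars or ars2, together with Eprs, Farsa and Farsb. The rule used no measured value, but it was set with earlier results of these data known. It gave 36 of the 11513 genes in the deposited tables, 20 cytosolic (symbol without a 2) and 16 mitochondrial (symbol ending in 2).

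Synthetases charge tRNAs in 2 compartments of a mouse cell. The cytosolic enzymes supply the ribosomes that translate nuclear messages, and the mitochondrial enzymes, also encoded in the nucleus, supply the ribosomes inside mitochondria. Most amino acids have a separate gene for each compartment, but Kars (lysine) and Gars (glycine) each make both forms of their enzyme from 1 gene and were counted as cytosolic. Several cytosolic synthetases sit together in a multisynthetase complex held by the scaffold proteins Aimp1, Aimp2 and Eef1e1.

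All RNA came from 3T9-MycER cells, mouse embryonic fibroblasts (source: E13.5 embryos) with floxed c-myc alleles, infected in vitro with a retroviral pBabe MycER construct that also carries resistance to zeocin. MycER joins Myc, a transcription factor, to a hormone-binding receptor domain, so that the drug 4-hydroxytamoxifen (OHT) switches it on. Cells received 400 nM OHT for 10, 20 or 30 min or for 1, 1.5, 2, 4, 8, 12 or 16 h, or none (0 min), and the 0 min cells carry MycER too. For every time there were 3 libraries of newly made RNA, tagged by a 10 min pulse of 4-thiouridine (4sU, at 300 µM), and 3 of total RNA, which makes 66. There was no time course without OHT, so the effects of OHT and of time in culture cannot be told apart. Since separate cultures are not named in the labels, p-values here reflect only library-to-library spread, possibly technical.

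The tables keep exon and intron values apart. Exon values count spliced and unspliced RNA together, whereas intron values count RNA not yet spliced. Deposited values summed per library to between 11619390 and 14118146 in labelled exons, 46498084 and 52716124 in total exons, 31279341 and 39258946 in labelled introns, and 10649913 and 13008655 in total introns. True read depth is unknown because the deposited values had been rescaled. All 36 synthetase genes passed the filter on low values in all 4 tables. Of 12 fibroblast markers, 10 were in the tables, at 5.28 to 2220 RPKM (reads per kilobase, relative to library size) in total exons at 0 min, with Vim highest. None of 5 epithelial, 3 muscle or 2 pluripotency markers was among the genes of the tables, and the endothelial marker Pecam1 was at 0.047 RPKM. The largest values among immune and neural markers were 2.25 RPKM for Cd68 and 86.8 RPKM for Nes.

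Per length, cytosolic synthetase messages were more abundant than mitochondrial ones before OHT. Total exon RPKM at 0 min ran from 24 to 140.3 among the 20 cytosolic genes (median 62.27) and from 1.637 to 11.37 among the 16 mitochondrial genes (median 5.91), without overlap, against a median of 7.087 over all genes. Kars was highest at 140.3 ± 6.43 RPKM (SD, n = 3), and Wars, the tryptophan enzyme, was the lowest cytosolic gene at 24 ± 1.06 RPKM (SD, n = 3). Tars (threonine) at 138.7 ± 8.33 RPKM (SD, n = 3) did not differ from Kars beyond that spread. Yars2 (mitochondrial tyrosine enzyme) led its class at 11.37 ± 0.862 RPKM (SD, n = 3). Iars2 (isoleucine) at 11.07 ± 0.404 and Rars2 (arginine) at 11.03 ± 0.833 lay within their spreads of Yars2. Iars2 shares 2018 of 8885 exon bases with Rab3gap2 on the opposite strand, and whether counting used strand is not given. In labelled exons the cytosolic median was 14.78 RPKM and the mitochondrial one 2.862.

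The classes also differed in total RPKM relative to labelled RPKM. The ratio of total to labelled exon RPKM at 0 min had a median of 3.965 in cytosolic genes (2.7 to 5.51) and 2.255 in mitochondrial genes (0.0923 to 3.13), beside 2.41 over all 11513 genes. Kars had the highest ratio, above 97% of genes. Both kinds of library were put on their own RPKM scales, so only the order of genes in this ratio can be read.

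Lars2, the mitochondrial leucine enzyme, stood apart from the other 35 genes, each of which had a higher RPKM in total than in labelled exons. Its exon level was 17.73 ± 3.62 RPKM (SD, n = 3) in labelled RNA and 1.637 ± 0.178 RPKM (SD, n = 3) in total RNA at 0 min, a ratio of 0.0923 that was below all but 0.0434% of genes. Its labelled intron level, 0.4783 ± 0.0246 RPKM (SD, n = 3), lay inside the range of the class (0.2647 to 2.927). Scaled total exon values of Lars2 at 1 h were 532.1, 420.6 and 1936, so 1 library held far more than the other 2. No Lars2 exon comparison passed the test at any time. The cause of its exon values was not tested, and its intron values are used below.

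RefSeq promoters (build GRCm38.p6, 250 bases before to 50 after the gene start) matched 26 of the 36 genes, 13 in each class. They were searched on both strands for CACGTG, the E-box letters that Myc with its partner Max binds, and for TGATGNAA, the element read by Atf4, the factor that raises many synthetase genes when amino acids are short. CACGTG was in 4 of 13 cytosolic promoters and in 1 of 14 mitochondrial ones, that of Ears2. By comparison 10.1% of the promoters of genes in the tables hold it. TGATGNAA was in 5 of 13 cytosolic promoters (Aars, Gars, Iars, Tars, Yars) and 0 of 14 mitochondrial ones, against 2.28% of promoters of genes in the tables. The 5 promoters with CACGTG are shown because their genes differed in labelled exon calls at 16 h (below). Iars and Farsb were higher, Aars and Ears2 lower, and Tars was not called. Both motifs are in capitals, with no overlap between motifs.
Aars, chr8:111033592-111033891, + strand: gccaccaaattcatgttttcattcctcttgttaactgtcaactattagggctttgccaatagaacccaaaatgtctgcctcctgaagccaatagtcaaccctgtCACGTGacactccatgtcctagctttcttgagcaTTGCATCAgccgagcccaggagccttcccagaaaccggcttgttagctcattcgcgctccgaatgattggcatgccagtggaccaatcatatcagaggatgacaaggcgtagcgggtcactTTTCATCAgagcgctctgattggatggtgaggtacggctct
Iars, chr13:49681880-49682179, + strand: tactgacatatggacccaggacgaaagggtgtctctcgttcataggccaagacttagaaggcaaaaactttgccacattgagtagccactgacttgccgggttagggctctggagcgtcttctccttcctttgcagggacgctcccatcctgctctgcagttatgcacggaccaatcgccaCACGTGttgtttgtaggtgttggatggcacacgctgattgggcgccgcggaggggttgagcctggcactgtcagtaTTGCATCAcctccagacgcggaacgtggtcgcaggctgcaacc
Tars, chr15:11399609-11399908, - strand: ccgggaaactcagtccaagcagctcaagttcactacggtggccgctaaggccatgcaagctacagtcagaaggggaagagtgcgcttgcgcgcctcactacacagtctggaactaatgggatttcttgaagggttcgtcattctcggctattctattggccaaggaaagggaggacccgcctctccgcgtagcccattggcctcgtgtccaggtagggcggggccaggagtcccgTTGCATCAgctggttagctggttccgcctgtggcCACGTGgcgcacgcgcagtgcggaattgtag
Farsb, chr1:78488848-78489147, - strand: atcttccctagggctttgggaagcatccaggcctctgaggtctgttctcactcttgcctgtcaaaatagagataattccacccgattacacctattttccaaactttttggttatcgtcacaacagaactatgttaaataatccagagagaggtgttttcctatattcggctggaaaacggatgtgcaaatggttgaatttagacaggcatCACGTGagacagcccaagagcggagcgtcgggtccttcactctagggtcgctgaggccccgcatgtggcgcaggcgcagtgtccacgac
Ears2, chr7:122067037-122067336, - strand: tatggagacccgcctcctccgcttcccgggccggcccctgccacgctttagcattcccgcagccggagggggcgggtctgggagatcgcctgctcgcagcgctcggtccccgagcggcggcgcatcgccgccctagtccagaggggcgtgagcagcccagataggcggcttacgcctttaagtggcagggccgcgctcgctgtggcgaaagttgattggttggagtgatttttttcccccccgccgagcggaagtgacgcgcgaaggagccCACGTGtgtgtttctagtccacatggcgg
Counted from the gene start, CACGTG begins at -146 in Aars, -69 in Iars, 20 in Tars, -39 in Farsb and 22 in Ears2. TGATGNAA begins at -112 and 10 in Aars, 8 in Iars and -15 in Tars. In these promoters it lies on the opposite strand, so the capitals show its reverse complement. A match is a description of the letters and not a bound site. The promoter of Farsa, the cytosolic synthetase gene with the largest rise below, holds neither motif in this window, and nor does that of Yars2.

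Each later time was compared with 0 min in each table by limma on log2 values, and a gene was called higher or lower where the p adjusted over all genes was under 0.05. Changes are log2 differences on a scale where 1 was added to the scaled value. All comparisons share the same 0 min libraries. In the text, scaled values are the deposited whole numbers after scaling between libraries.

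**Figure D1:**
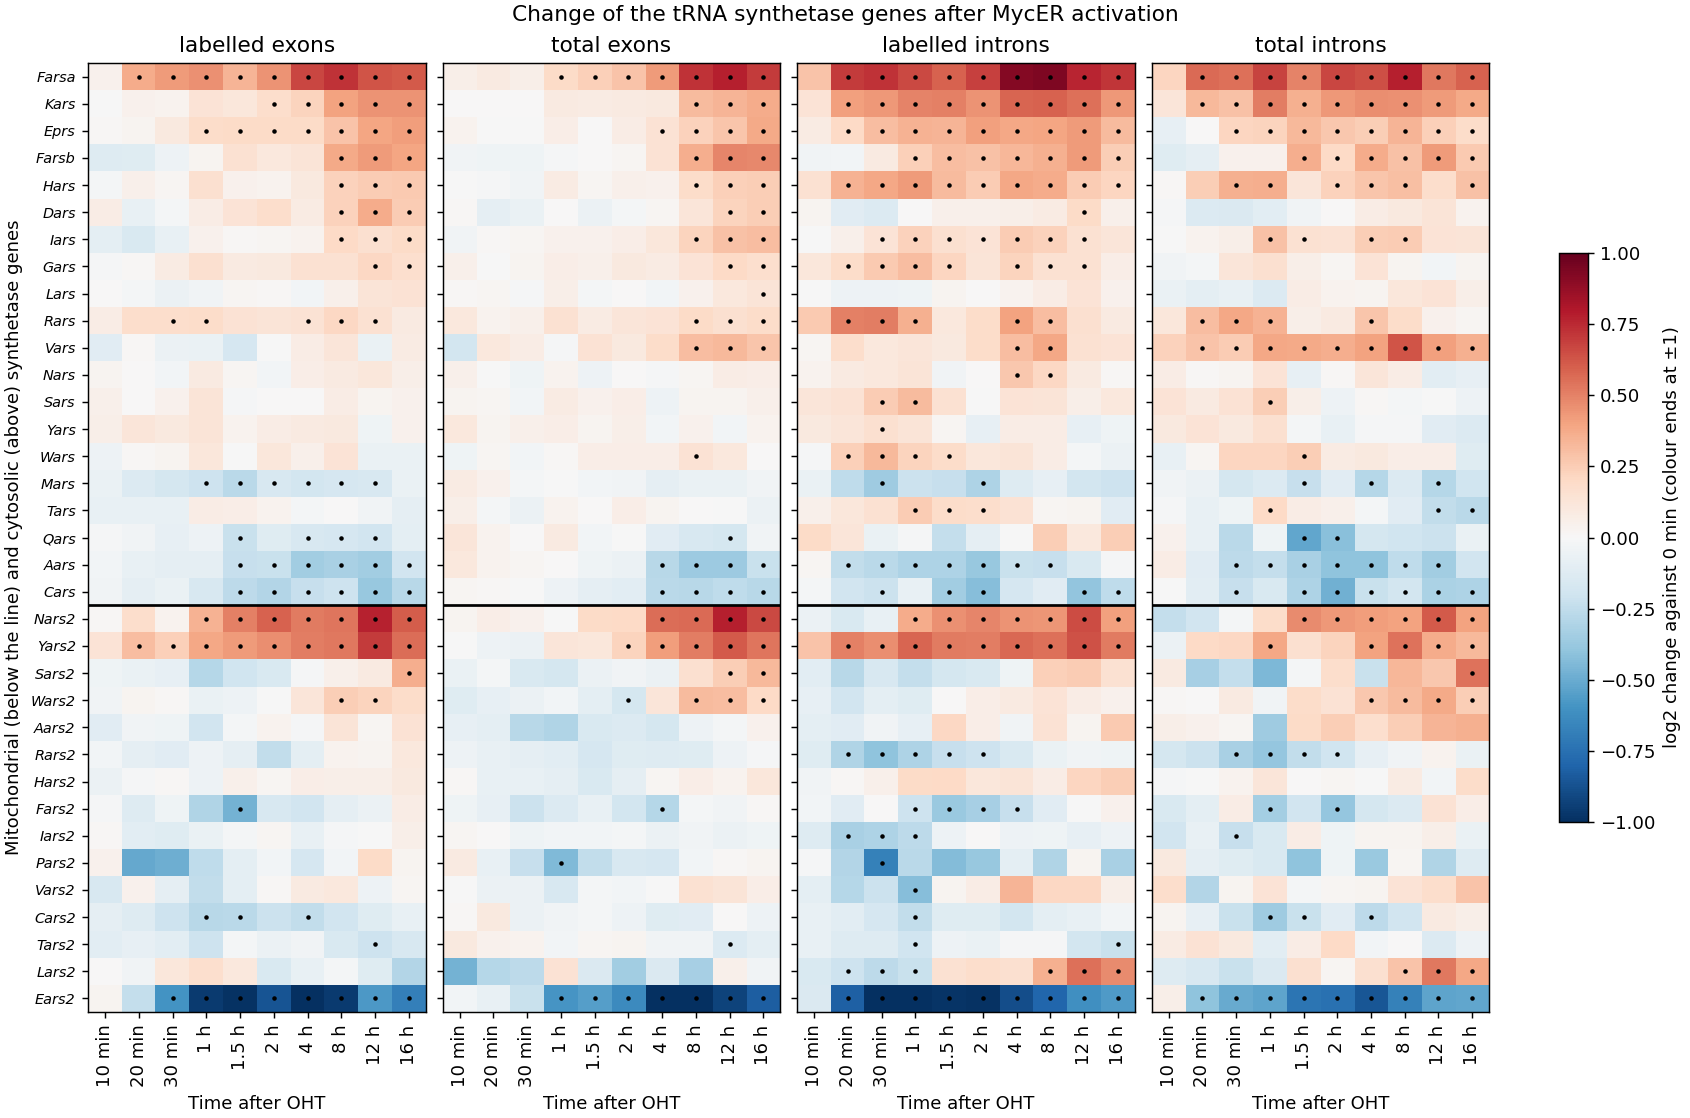
Change of 35 synthetase genes (rows, cytosolic above the line, mitochondrial below, ordered by the labelled exon change at 16 h) at each time after OHT (columns) in the 4 tables; colour is the log2 change against 0 min and a dot marks limma adjusted p under 0.05. Farsa is red from 20 min on in labelled exons, Ears2 is blue in all 4, and most other cells are pale.

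Labelled exons at 16 h held 10 called cytosolic and 4 called mitochondrial genes. These are bulk samples, in which fewer cells making a message and less of it per cell cannot be told apart. In labelled exons at 16 h, 8 of 20 cytosolic genes were called higher (Farsa, Kars, Eprs, Farsb, Hars, Dars, Iars, Gars) and 2 lower (Aars, Cars). Among all genes, 22.9% were higher and 21.4% lower, so the 8 of 20 lie above that share and the 2 of 20 below it. Among the 16 mitochondrial genes 3 were higher (Nars2, Yars2, Sars2), near the background share, and 1 lower (Ears2), below it. The median change at 16 h was 0.08 in each class, beside 0.02 over all genes. Here and below, counts of calls do not compare the classes in size of change, since a call also depends on each gene's spread. Gars at 0.166 was called at 16 h and Wars2 at 0.184 was not. The calls of Gars, Dars, Iars and Cars each ended in at least 1 omission of a library. Gars missed the threshold without 0 min replicate 2 or 3 or 16 h replicate 1 or 3 (adjusted p = 0.111 to 0.218). Dars missed it without 0 min replicate 1 or 3 or 16 h replicate 2 (0.0686 to 0.0933), Iars without 16 h replicate 3 (0.0541) or without further scaling (0.0849) and Cars without 0 min replicate 1 (0.0522). That last omission left 1 cytosolic gene lower, and omitting 16 h replicate 2 made 2 mitochondrial genes lower.

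At 1 h 3 cytosolic genes were higher in labelled exons (Farsa, Eprs, Rars) and 1 lower (Mars), and 2 mitochondrial genes were higher (Yars2, Nars2) and 3 lower (Ears2 and Cars2 among them). The background at 1 h was 13.8% higher and 9.44% lower. At 4 h the cytosolic counts were 4 higher (Farsa, Kars, Eprs, Rars) and 4 lower (Aars, Cars, Mars, Qars) and the mitochondrial ones 2 and 2, against 19.4% and 18.8%. The class medians parted at 1 h, at 0.09 for cytosolic and -0.20 for mitochondrial genes with 0.01 over all genes. These counts rest on single libraries. The 3 cytosolic rises at 1 h became 1 without 0 min or 1 h replicate 3, and the 1 fall became 0 without 1 h replicate 1. Mitochondrial rises at 1 h became 1 without 0 min replicate 3 or 1 h replicate 2 or 3. At 4 h the cytosolic rises became 2 without 0 min replicate 3 or 4 h replicate 1 or 3, and the cytosolic falls became 2 without 0 min replicate 1 and 1 without 4 h replicate 2. The mitochondrial falls at 4 h became 1 without replicate 1 or 3 of 0 min or replicate 2 or 3 of 4 h. Without further scaling of the deposited values the cytosolic rises were 1 at 1 h and 1 at 4 h, and with scaling by library sums 7 mitochondrial genes were lower at 1 h.

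**Figure D2:**
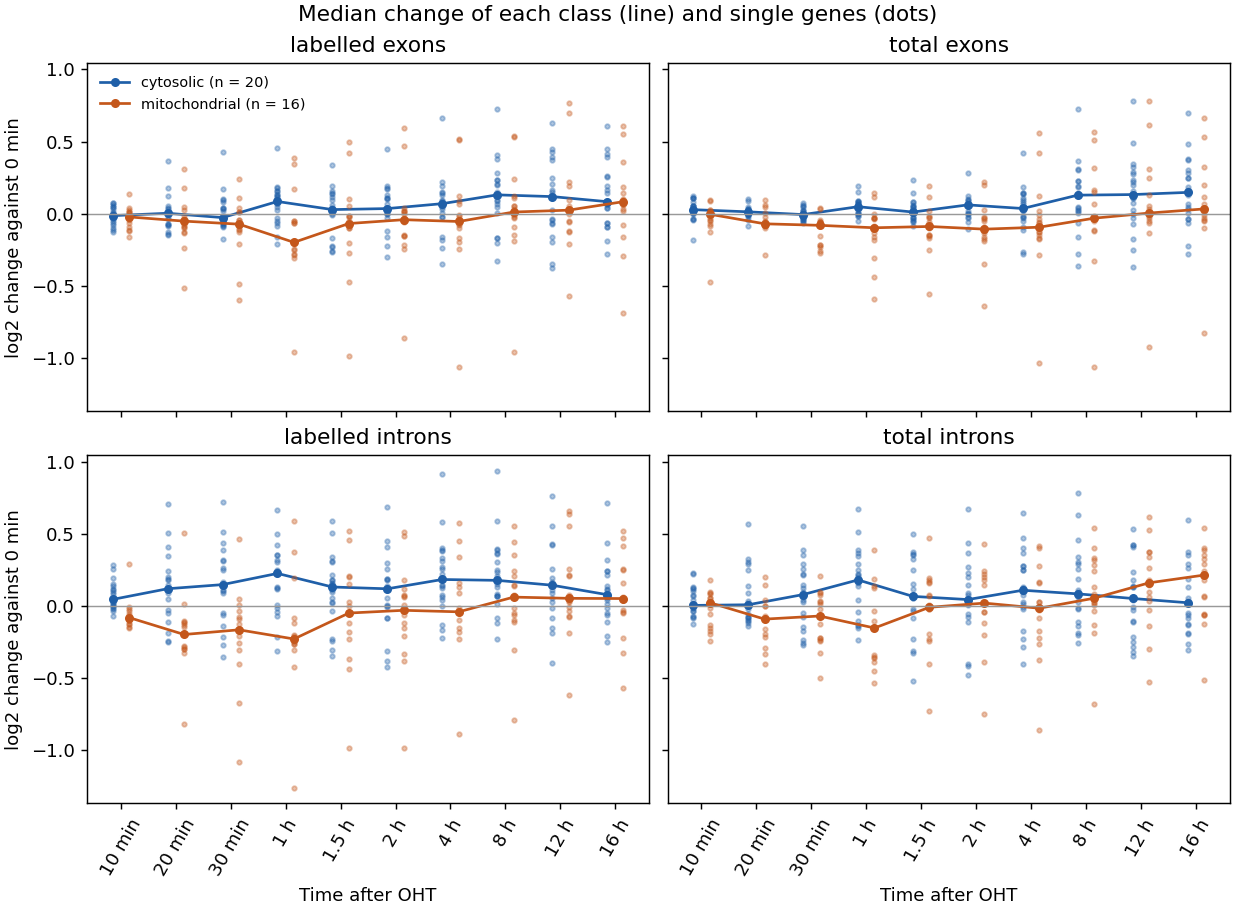
Median log2 change against 0 min of the 20 cytosolic and 16 mitochondrial synthetase genes (lines) and of 35 single genes (dots) at each time, 1 panel per table. In labelled introns at 1 h the cytosolic median is 0.23 and the mitochondrial median -0.23; at 16 h the medians are 0.08 and 0.05.

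Farsa had the largest cytosolic rise. It encodes the catalytic subunit of the phenylalanine enzyme and lies at chr8:87380888-87393156 (mm9, + strand). Its scaled labelled exon values were 1873, 1749 and 1682 at 0 min, 2622, 2438 and 2223 at 1 h, 2735, 3028 and 2660 at 4 h, and 2692, 2703 and 2699 at 16 h. Every library from 1 h on in this set was above every 0 min library. The log2 change was 0.37 ± 0.07 (SE) at 20 min (limma adjusted p = 0.00145), 0.67 ± 0.07 at 4 h (6.14e-09) and 0.61 ± 0.07 at 16 h (1.71e-08), and it was called at 9 of 10 times. Farsb, which encodes the partner subunit of the same enzyme (chr1:78414533-78485434, - strand), had 986.4, 1103 and 1063 at 0 min, 1066, 1026 and 1120 at 1 h, 1134, 1129 and 1180 at 4 h and 1339, 1308 and 1496 at 16 h. It was 0.03 ± 0.08 (SE) at 1 h and rose by 0.39 ± 0.08 by 16 h (limma adjusted p = 8.37e-05), so the subunits of 1 enzyme differed in when they were called. Farsb was called from 8 h on, at 3 of 10 times. Farsb shares 265 of 2444 exon bases with Sgpp2 on the other strand. Whether counting used strand is not given in the sources used here, so reads of overlapping genes cannot be told apart.

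Kars (chr8:114517340-114535223, - strand) had scaled labelled exon values of 2656, 2560 and 2662 at 0 min, 2825, 2873 and 2953 at 1 h, 2979, 3231 and 2967 at 4 h and 3531, 3388 and 3861 at 16 h. All 9 later libraries were above all 0 min ones, and the 16 h ones were highest. The change was 0.14 ± 0.06 (SE) at 1 h (limma adjusted p = 0.0898), 0.22 ± 0.06 at 4 h (0.00275) and 0.45 ± 0.06 at 16 h (5.74e-08). Eprs (chr1:187186974-187252234, + strand) makes a single protein that charges both glutamate and proline tRNAs. Its values were 5528, 6275 and 5404 at 0 min, 6187, 6657 and 6632 at 1 h, 6744, 6169 and 6697 at 4 h and 7777, 7288 and 7875 at 16 h. The groups overlapped at 1 h and 4 h but not at 16 h, when Eprs rose by 0.42 ± 0.06 (SE; limma adjusted p = 1.36e-06). The Kars call at 4 h ended without further scaling (adjusted p = 0.0964) and on RPKM values (0.094 and 0.0915). The Eprs calls at 1 h and 4 h ended under the same settings (0.113 to 0.152) and without replicate 1 or 3 of 0 min, among others (adjusted p = 0.0627 to 0.182). Hars, the histidine enzyme, rose by 0.26 ± 0.07 at 16 h (limma adjusted p = 0.00297), and its call stood in every omission of 1 library. Hars shares 195 of 1987 exon bases with Hars2, its mitochondrial counterpart on the opposite strand.

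4 cytosolic genes were called lower in labelled exons at 4 h. Over the 10 times, Aars and Cars were each called lower at 6 in labelled exons and at 4 in total exons. Mars was called lower at 6 and 0, and Qars at 4 and 1. Qars had its lowest total exon change, -0.17, at 12 h. Mars and Qars were not called in total exons at 1, 4 or 16 h. Total exon changes at 1 h and 4 h were -0.001 and -0.092 for Mars and 0.086 and -0.111 for Qars. Aars, the alanine enzyme (chr8:113557044-113581564, + strand), had scaled labelled exon values of 3433, 3825 and 3717 at 0 min, 3438, 3495 and 3393 at 1 h, 2899, 2750 and 2989 at 4 h and 3240, 3243 and 3119 at 16 h. The 4 h and 16 h libraries were all below the 0 min ones, the 4 h ones lowest. Aars fell by 0.345 ± 0.058 (SE; limma adjusted p = 1.22e-05) at 4 h and by 0.19 ± 0.06 (0.00695) at 16 h, and its call at 4 h and 16 h stood in every omission of 1 library. Cars, the cysteine enzyme (chr7:150743135-150785995, - strand), had 2006, 1787 and 1770 at 0 min, 1755, 1520 and 1698 at 1 h, 1767, 1375 and 1607 at 4 h and 1564, 1476 and 1545 at 16 h. Its later libraries all lay below its 0 min ones, narrowly at 1 h and 4 h. Cars was lower by -0.23 ± 0.08 (SE) at 4 h (limma adjusted p = 0.024) and -0.28 ± 0.08 at 16 h (0.00628). Without 0 min replicate 1 the Cars p was 0.134 at 4 h and 0.0522 at 16 h, and without 4 h replicate 2 it was 0.238 at 4 h.

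Mars, the methionine enzyme that also charges the initiator tRNA (chr10:126733277-126748842, - strand), had scaled labelled exon values of 1752, 1794 and 1740 at 0 min, 1440, 1544 and 1605 at 1 h, 1573, 1469 and 1630 at 4 h and 1668, 1712 and 1675 at 16 h. All later libraries were below all 0 min ones, with the 16 h ones closest. Mars was lower by -0.21 ± 0.06 (SE) at 1 h (limma adjusted p = 0.00986) and -0.18 ± 0.06 at 4 h (0.0155), and was -0.07 ± 0.06 at 16 h (0.402). The 1 h call ended without 1 h replicate 1 (0.0859) and the 4 h call without 0 min or 4 h replicate 2 (0.0525 and 0.103). Mars shares 68 of 3423 exon bases with Ddit3, a stress-response gene on the opposite strand. Qars, the glutamine enzyme, which has no mitochondrial twin (chr9:108410336-108418272, + strand), had 1775, 1561 and 1654 at 0 min, 1676, 1564 and 1573 at 1 h, 1429, 1529 and 1494 at 4 h and 1596, 1542 and 1533 at 16 h. Its 4 h libraries lay below its 0 min ones, while 1 h and 16 h overlapped them. The Qars change at 4 h was -0.16 ± 0.07 (SE; limma adjusted p = 0.0467), and this call ended in 5 of the 6 omissions of 1 library: without 0 min replicate 1 or 3 or any 4 h replicate (0.051 to 0.222).

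**Figure D3:**
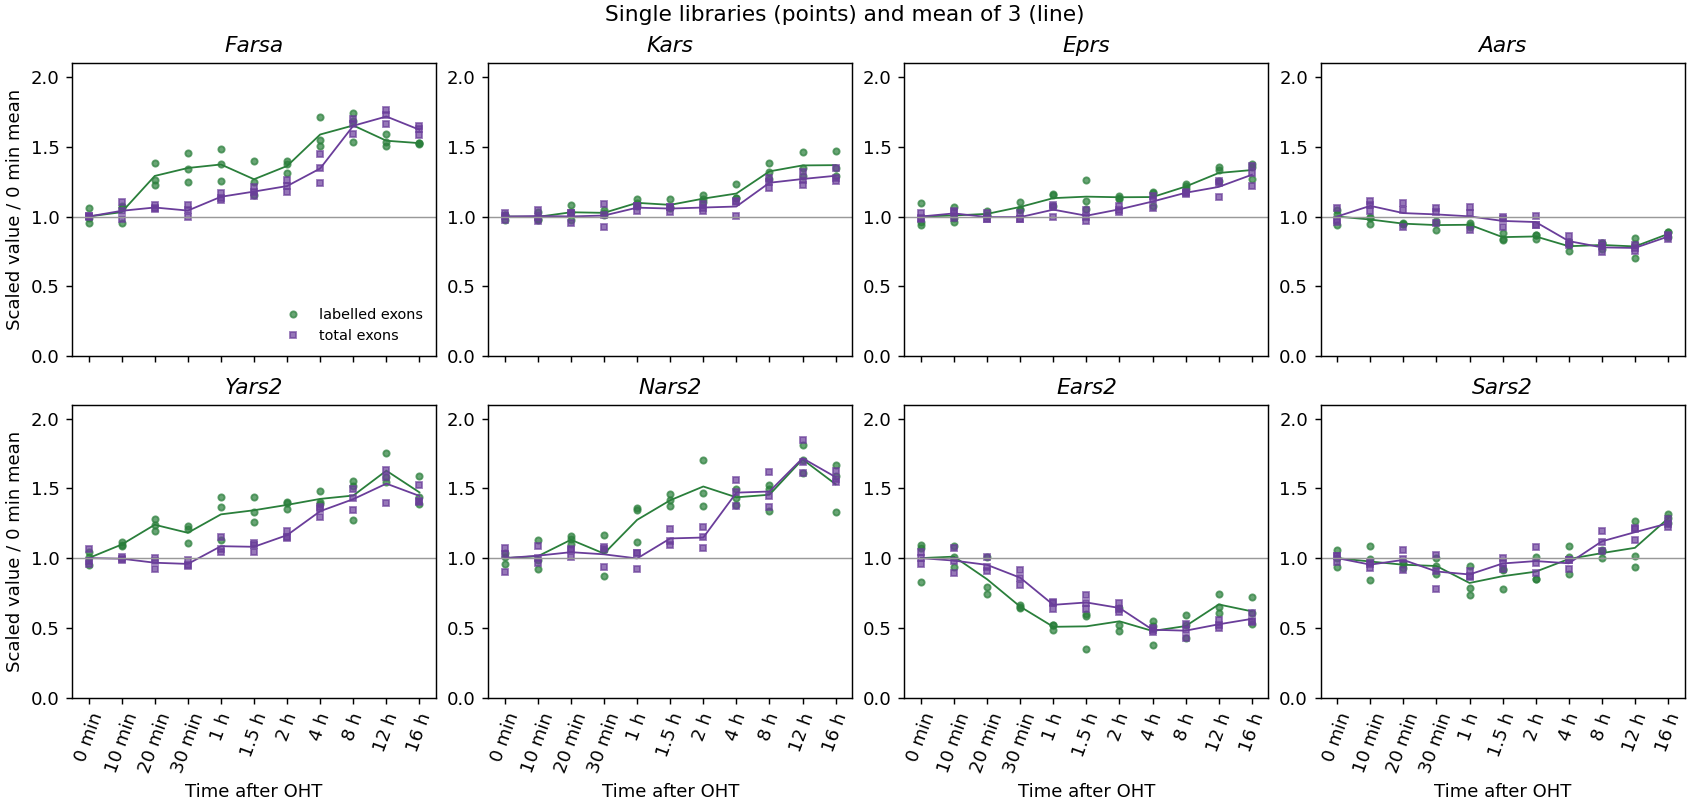
Scaled exon values of 8 synthetase genes divided by their 0 min mean, at each time after OHT, in labelled (circles) and total RNA (squares); points are single libraries and lines the mean of 3. Labelled Farsa is above its 0 min mean from 20 min, total Farsa follows more slowly, and both Ears2 series fall to about the same low level by 4 h.

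Among the mitochondrial genes, Ears2 had the largest labelled exon change at 1, 4 and 16 h. It makes the enzyme that charges mitochondrial glutamate and, at first step, glutamine tRNAs, and lies at chr7:129180727-129210777 (- strand). Its scaled labelled exon values were 109.3, 141.9 and 144.9 at 0 min, 68.46, 63.83 and 68.73 at 1 h, 67.46, 72.36 and 49.33 at 4 h and 80.25, 95.18 and 69.5 at 16 h. No library at 1, 4 or 16 h reached the lowest 0 min one. Ears2 fell by 0.96 ± 0.19 (SE; limma adjusted p = 0.000192) at 1 h, by 1.06 ± 0.19 (2.28e-05) at 4 h and by 0.69 ± 0.19 (0.00278) at 16 h. It was called lower at 8 of 10 times in labelled exons and 7 of 10 in total exons. In total exons its values were 491.7, 510.3 and 532.6 at 0 min and 241.5, 255.3 and 249.6 at 4 h, a fall by 1.04 ± 0.09 (SE; limma adjusted p = 9.25e-11). The calls of Ears2 at 1, 4 and 16 h in all 4 tables stood under every alternative run. Ears2 shares 89 of 5152 exon bases with Ubfd1 on the opposite strand.

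Nars2, the mitochondrial asparagine enzyme (chr7:104100015-104213271, + strand), had scaled labelled exon values of 346.2, 336.2 and 321.2 at 0 min, 374, 455.8 and 449.1 at 1 h, 500, 461.7 and 479.2 at 4 h and 445.8, 558.1 and 531.2 at 16 h. All later libraries were above the 0 min ones. Nars2 rose by 0.52 ± 0.10 (SE; limma adjusted p = 0.000105) at 4 h and by 0.61 ± 0.10 (7.45e-06) at 16 h, with its largest mean change, 0.77, at 12 h. Its 1 h change of 0.34 ± 0.10 (0.0121) was no longer called without 0 min replicate 3 or 1 h replicate 2 or 3 (adjusted p = 0.0547 to 0.0682). Nars2 shares 284 of 4213 exon bases with the noncoding gene C230038L03Rik on the opposite strand. Yars2 (chr16:16303058-16309733, + strand) had 851, 882.6 and 807.6 at 0 min, 1158, 1221 and 959.3 at 1 h, 1256, 1174 and 1190 at 4 h and 1345, 1173 and 1221 at 16 h. Yars2 was above its 0 min range in each of these libraries, and was called higher from 20 min (0.31 ± 0.08 SE, limma adjusted p = 0.0165) to 16 h (0.555 ± 0.079, 4.28e-07), at 9 of 10 times. Farsa and Yars2 were the only synthetase genes called in labelled exons at 20 min.

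Sars2, the mitochondrial serine enzyme (chr7:29527010-29538871, + strand), had scaled labelled exon values of 227.3, 256.6 and 241.8 at 0 min, 189.5, 178.5 and 228.4 at 1 h, 262.9, 243.6 and 214.4 at 4 h and 302.2, 311.6 and 318 at 16 h. The 16 h libraries were above the rest, while 1 h and 4 h overlapped 0 min. Its change was -0.29 ± 0.12 (SE) at 1 h (limma adjusted p = 0.0691) and 0.36 ± 0.12 at 16 h (0.0107). Cars2, the mitochondrial cysteine enzyme (chr8:11514021-11550771, - strand), had 316.2, 278.8 and 320.3 at 0 min, 272.8, 233.4 and 248.8 at 1 h, 273.8, 267 and 232.6 at 4 h and 291.3, 292.6 and 282.8 at 16 h. The 1 h and 4 h libraries of Cars2 were just below its 0 min ones. Its change of -0.28 ± 0.10 (SE) at 1 h (limma adjusted p = 0.0382) and -0.24 ± 0.10 at 4 h (0.0495) lost the call without 0 min replicate 1 or 3 or the compared time's replicate 2 or 3 (adjusted p = 0.0603 to 0.237).

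Labelled exons at 16 h were also compared with those at 4 h. In labelled exons 4 cytosolic (Kars, Farsb, Eprs, Iars) and 2 mitochondrial genes (Sars2 among them) were higher at 16 h than at 4 h, and none of the 36 was lower, beside 10.2% of genes higher and 11.9% lower. Kars was higher by 0.23 ± 0.06 (SE; limma adjusted p = 0.00326). Without 16 h replicate 3 or 4 h replicate 2 the cytosolic count was 2. Without replicate 1 or 3 of 4 h or of 16 h the mitochondrial count was 1. The Iars call between these times ended without further scaling (adjusted p = 0.075). Cytosolic introns differed in sign, with a median from 4 h to 16 h of -0.13 in labelled introns (3 of 20 genes positive) and -0.07 in total introns (5 of 20), beside 0.06 in labelled exons (13 of 20).

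Total exons answer whether the pools of message moved with the newly made RNA. At 1 h 1 cytosolic gene was higher (Farsa) and 2 mitochondrial genes were lower (Ears2, Pars2), against 5.23% and 3.47% of all genes. At 4 h 2 cytosolic genes were higher (Farsa, Eprs) and 2 lower (Aars, Cars), and 2 mitochondrial genes were higher (Nars2, Yars2) and 3 lower (Ears2 and Fars2 among them), against 19.7% and 19.5%. At 16 h 11 of 20 cytosolic genes were higher and 2 lower, against 26.9% and 29% of all genes, and 4 of 16 mitochondrial genes were higher and 1 lower. The 11 were Farsa, Farsb, Eprs, Kars, Iars, Hars, Dars, Rars, Gars, Lars and Vars, with a median over the class of 0.15 (all genes -0.01). The 11 became 7 without 0 min replicate 2 or 16 h replicate 3. The 1 h call of Farsa ended without 1 h replicate 1 (adjusted p = 0.0623) or without further scaling (0.0584). At 4 h the cytosolic rises were 1 without replicate 3 and 4 without replicate 2 of that time, and the falls were 1 without 0 min replicate 1 or 4 h replicate 2.

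Farsa again led in total exons, with scaled values of 7158, 7082 and 7133 at 0 min and 11770, 11280 and 11620 at 16 h, a rise by 0.70 ± 0.05 (SE; limma adjusted p = 9.64e-13). Its total exon change was 0.09 at 20 min and 0.19 at 1 h, when the labelled changes were 0.37 and 0.46. Iars, the isoleucine enzyme, rose by 0.31 ± 0.045 (SE) in total exons at 16 h (limma adjusted p = 1.31e-06), from 21090, 21060 and 21180 to 26580, 25650 and 26090. Wars2, the mitochondrial tryptophan enzyme, rose by 0.20 ± 0.06 (0.00339) at 16 h, and joined Nars2, Yars2 and Sars2 as the 4 mitochondrial genes called higher. At 16 h the 8 cytosolic genes higher in labelled exons were all among the 11 higher in total exons (8 of 8 and 8 of 11), and Aars and Cars were lower in both. The same held for 3 of 3 and 3 of 4 mitochondrial genes, and no synthetase gene was called in opposite directions. This overlap was not counted over all genes, so it has no background share and is not a trait of the synthetases.

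The change in labelled exons was tested against the change in total exons in 1 model over 66 libraries. None of the 36 genes was called at 1, 4 or 16 h by limma. At an unadjusted p under 0.05 there were 5, 1 and 0 genes. Labelled and total libraries of the same number deviated together by 0.04 to 0.18 (correlation), and with each such pair as a block there were again 0 calls. The background was 0.986% and 0.349% (labelled larger, labelled smaller) at 1 h, 0.0523% and 0.00872% at 4 h and 0.192% and 0.14% at 16 h. Farsa was nearest to a call at 1 h, where labelled exceeded total by 0.27 ± 0.09 (SE; limma adjusted p = 0.152). Without labelled 1 h replicate 3 there was 1 call at 1 h. The smaller change of Farsa in total exons at 1 h therefore did not pass this test. Its gap between labelled and total exons before 1 h was not tested.

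**Figure D4:**
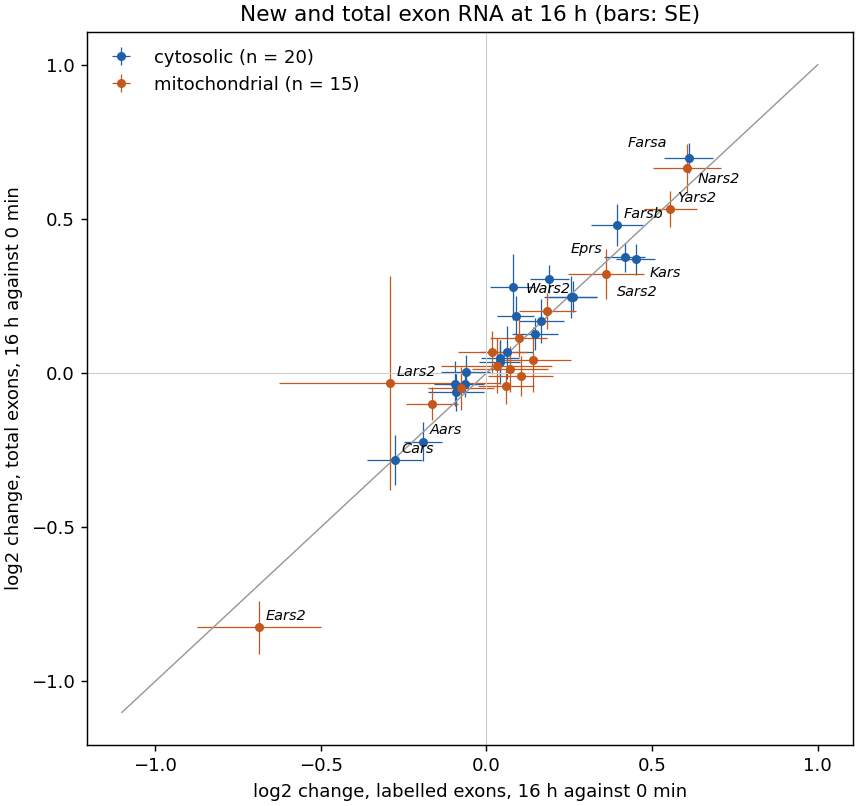
Log2 change at 16 h against 0 min in labelled exons (x) and total exons (y) for 20 cytosolic and 15 mitochondrial synthetase genes, bars ± SE, with the line of equal change. Ears2 sits at the lower left, Farsa, Nars2 and Yars2 at the upper right, and Lars2 has the widest bars.

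In labelled introns, cytosolic calls were mostly rises and mitochondrial calls mostly falls over the first hour. In labelled introns at 20 min 7 of 20 cytosolic genes were higher (Farsa, Rars, Kars, Hars, Wars, Eprs, Gars) and 1 lower (Aars), while 1 of 16 mitochondrial genes was higher (Yars2) and 5 were lower (Ears2, Iars2, Rars2 and Lars2 among them). The background at 20 min was 16.7% higher and 13.3% lower. At 1 h 11 cytosolic genes were higher and 1 lower, and 2 mitochondrial genes were higher (Yars2, Nars2) and 9 lower, against 24.8% and 24.4%. The medians at 1 h were 0.23 and -0.23, with -0.01 over all genes. The difference between the classes has no test here. The 9 mitochondrial falls became 5 without 0 min replicate 3 or 1 h replicate 1 or 2, and 5 to 8 over all omissions. The cytosolic falls at 20 min became 0 without 0 min replicate 1 or 2 or 20 min replicate 1 or 3, and at 1 h they became 2 without 1 h replicate 3. Over omissions at 20 min, cytosolic rises were 5 to 7 and mitochondrial falls 4 to 6. The Lars2 call at 20 min ended without 0 min replicate 2 or 3 or 20 min replicate 1 or 3 (limma adjusted p = 0.124 to 0.147). It also ended without further scaling (0.0697). Those of Eprs and Gars ended without replicate 3 of either time, among others for Eprs.

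At 4 h and 16 h the class medians in labelled introns lay closer, at 0.18 and -0.04 and then at 0.08 and 0.05. At 4 h 10 cytosolic genes were higher in labelled introns and 1 lower, and mitochondrial genes stood at 2 and 2, beside 24.8% and 24.9% of all genes. At 16 h the cytosolic counts were 5 higher (Farsa, Kars, Eprs, Farsb, Hars) and 1 lower (Cars), and the mitochondrial ones 4 higher (Yars2, Lars2 and Nars2 among them) and 2 lower (Ears2, Tars2), beside 25.1% and 23%. With scaling by library sums, which moved the median of all genes at 16 h to 0.13, there were 12 cytosolic and 7 mitochondrial rises. At 4 h the 1 cytosolic fall became 0 without 0 min replicate 1 or 2, the mitochondrial rises became 4 without 4 h replicate 1 and the falls 1 without 4 h replicate 2. At 16 h the cytosolic falls became 0 without replicate 3 and 2 without replicate 2, and the mitochondrial falls became 1 without 0 min replicate 1 or 16 h replicate 1 or 2.

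Total introns gave the same order of classes at 1 h, with 9 cytosolic genes higher and 1 lower and with 1 mitochondrial gene higher and 5 lower, against 20.3% and 19.9%. At 4 h the counts were 8 higher and 3 lower (cytosolic) and 3 higher and 3 lower (mitochondrial), against 20.3% and 19.5%. At 16 h they were 6 and 2 (cytosolic) and 6 and 1 (mitochondrial), against 21.4% and 19.8%, with class medians of 0.02 and 0.21. Vars, the valine enzyme, was higher in total introns at 1 h (0.39 ± 0.095 SE, limma adjusted p = 0.00128) and at 16 h (0.35 ± 0.095, 0.00311). Over all times Vars was called higher at 9 in total introns, 2 in labelled introns, 3 in total exons and 0 in labelled exons. Vars shares 304 of 5611 exon bases with D17H6S56E-5 on the opposite strand. In total introns Tars was higher at 1 h (0.20 ± 0.07) and lower at 16 h (-0.27 ± 0.07, limma adjusted p = 0.0016). The 1 h call of Tars ended without 0 min replicate 3 or 1 h replicate 1 or 3 (adjusted p = 0.0657 to 0.101) and without further scaling (0.239). At 16 h the cytosolic falls became 5 without 0 min replicate 3 and the mitochondrial rises 3 without 0 min replicate 1. At 4 h the cytosolic falls became 1 without 0 min replicate 1 or 4 h replicate 2. At 1 h the cytosolic fall became 0 without 0 min replicate 1 or 2 or 1 h replicate 2, and the mitochondrial rises 2 without 0 min replicate 2 or 1 h replicate 1.

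Single genes showed the shift most plainly. Ears2 introns went from 851, 877 and 912.5 at 0 min to 534, 493.9 and 470 at 20 min and 365.1, 390.4 and 347.6 at 1 h, then to 619.6, 595.7 and 565 at 16 h. The Ears2 intron change was -0.82 ± 0.09 at 20 min (limma adjusted p = 1.96e-08), while calls in its labelled exons began at 30 min. Ears2 exons had lower scaled values and a larger SE than its introns, so a later first call does not show a later change. Lars2 introns were 1949, 2125 and 2096 at 0 min, 1712, 1662 and 1933 at 1 h and 2841, 2795 and 2906 at 16 h. The Lars2 intron change was 0.47 ± 0.08 (SE) at 16 h (limma adjusted p = 6.68e-06), a gene whose exon values are the unusual ones above.

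Among cytosolic genes, Kars introns were 1867, 1943 and 1687 at 0 min, 2508, 2359 and 2425 at 20 min, 2657, 2543 and 2543 at 1 h and 2577, 2376 and 2480 at 16 h. Kars introns were above their 0 min range in all of these libraries and rose by 0.41 ± 0.06 (SE; limma adjusted p = 3.52e-06) at 20 min, when the Kars exon change was 0.04 ± 0.06 (0.823). Rars, the arginine enzyme, had intron values of 6824, 6989 and 6406 at 0 min, 8762, 9174 and 10870 at 20 min, 9247, 9035 and 7641 at 1 h and 7779, 7040 and 6713 at 16 h. The Rars intron change was 0.51 ± 0.09 (SE) at 20 min (limma adjusted p = 5.28e-05) and 0.09 ± 0.09 at 16 h (0.439), when its libraries overlapped those at 0 min. Hars introns changed by 0.345 ± 0.075 (SE) at 20 min (limma adjusted p = 0.000659) and 0.42 ± 0.075 at 1 h (2.25e-05).

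**Figure D5:**
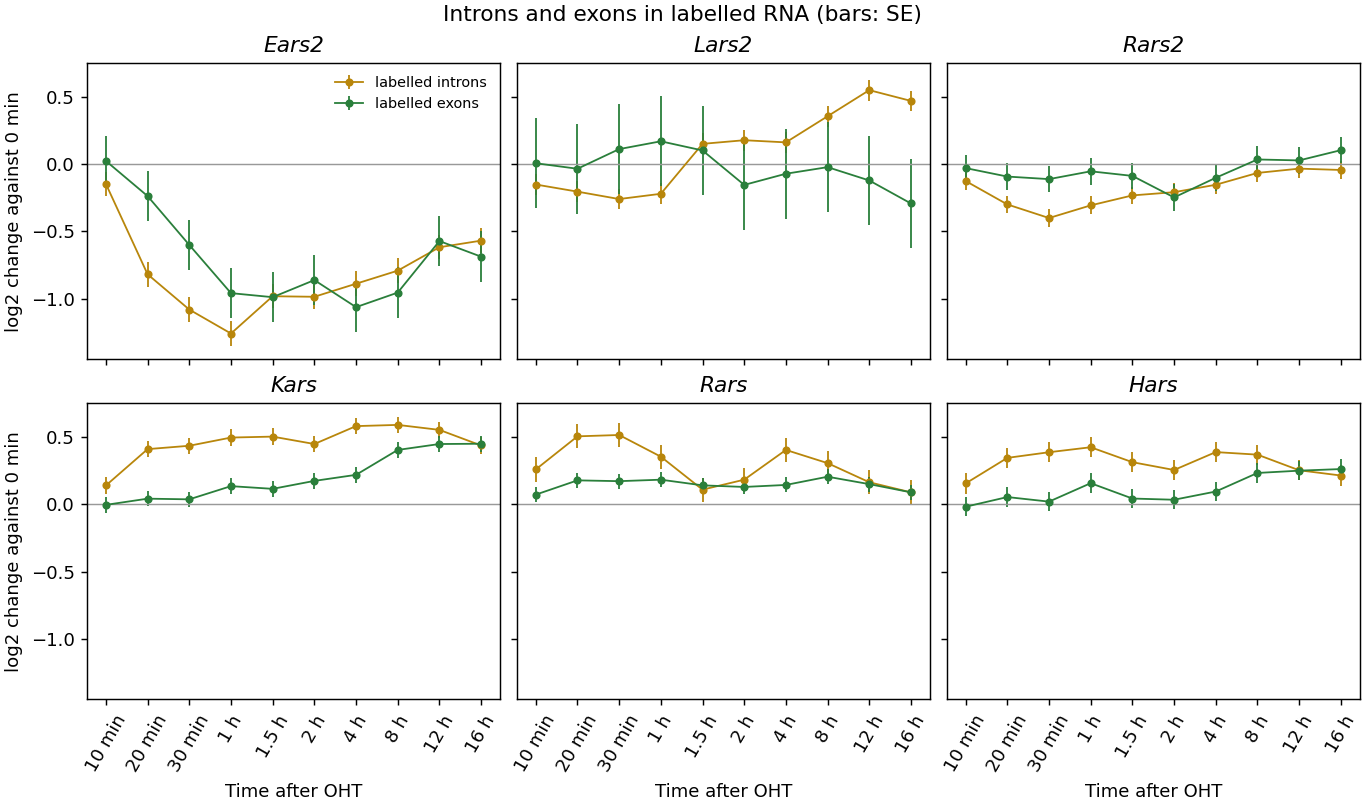
Log2 change against 0 min in labelled introns and labelled exons at each time after OHT for 3 mitochondrial (Ears2, Lars2, Rars2) and 3 cytosolic genes (Kars, Rars, Hars); bars are ± SE. Ears2 introns reach -1.26 at 1 h, and Kars introns reach 0.41 at 20 min before the exons move.

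The ratio of intron to exon value within a labelled library was tested too (pseudocount 2). At 1 h 2 of the 36 genes were called, among them Kars with a higher ratio (0.36 ± 0.08 SE, limma adjusted p = 0.00596), against 5.85% of genes higher and 4.59% lower. At 4 h Kars alone was called (0.36 ± 0.08, limma adjusted p = 0.0257), against 0.636% and 0.723%. At 16 h none of 36 was called by limma (2 at an unadjusted p under 0.05), against 0.244% and 0.61%. The Kars calls did not stand without further scaling. Kars at 1 h ended without 0 min replicate 3 (adjusted p = 0.0574) and at 4 h without 0 min replicate 1 or 3 or any 4 h replicate (0.0608 to 0.196). Without 0 min replicate 3 the count at 1 h was 0, and without 0 min replicate 1 or 1 h replicate 1 or 2 it was 1.

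The members were also grouped by what the enzymes are. Of the 8 enzymes of the multisynthetase complex (Dars, Eprs, Iars, Kars, Lars, Mars, Qars, Rars), 4 were higher and none lower in labelled exons at 16 h by limma, and 6 higher and none lower in total exons, with medians of 0.17 and 0.22. Of the scaffold genes, Eef1e1 rose by 1.16 ± 0.08 (SE; limma adjusted p = 1.24e-14) and Aimp1 by 0.19 ± 0.08 (0.0406), while Aimp2 was at -0.02 ± 0.08. Among the 10 cytosolic enzymes of class I (with Eprs, whose glutamate part belongs to that class), 2 were higher and 1 lower in labelled exons at 16 h. Among the 10 of class II, whose catalytic core is built differently, 6 were higher (Farsa, Kars, Farsb, Hars, Dars, Gars) and 1 lower (Aars). Over all genes 22.9% were higher and 21.4% lower in labelled exons at 16 h, and 26.9% and 29% in total exons.

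Other genes of tRNA metabolism were taken from lists. Of 33 tested tRNA modification genes, 12, 18 and 20 were higher in labelled exons at 1, 4 and 16 h and 1, 1 and 0 lower, and in total exons at 16 h 22 were higher and 1 lower. Over all genes the shares higher were 13.8%, 19.4% and 22.9% in labelled exons and 26.9% in total exons at 16 h, and the shares lower 9.44%, 18.8%, 21.4% and 29%. Their median at 16 h was 0.35 in labelled exons, beside 0.02 over all genes. Adat1, a tRNA deaminase, rose by 1.16 ± 0.08 (SE; limma adjusted p = 5.33e-14) at 16 h, Tyw1, of the wybutosine path, by 0.73 ± 0.08 (5.01e-10), and Nsun2, a tRNA methyltransferase, by 0.63 ± 0.07 (8.05e-09). Of 19 tested genes of tRNA end processing and export, 10 were higher and 2 lower at 16 h, with a median of 0.31. Trnt1, which adds the CCA end that synthetases charge, rose by 0.68 ± 0.07 (limma adjusted p = 5.25e-10), Elac2, the 3' end nuclease, by 0.62 ± 0.07 (1.26e-09), and Rpp14, an RNase P protein, by 0.83 ± 0.09 (3.21e-09).

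Of 8 synthetase-like, editing and deacylase genes 4 were higher and 2 lower in labelled exons at 16 h, when 22.9% of all genes were higher and 21.4% lower, the shares against which the counts of this paragraph stand. Tarsl2, a threonine synthetase-like gene, rose by 0.80 ± 0.09 (SE; limma adjusted p = 7.43e-09), Yrdc, which makes a modification of tRNAs that read ANN codons, by 0.44 ± 0.07 (2.7e-06), and Dtd1, a deacylase that clears wrongly charged D-amino acids, by 0.75 ± 0.17 (0.000537). Mitochondria make glutaminyl-tRNA from the product of Ears2 with an amidotransferase. Of 6 gene names listed for this amidotransferase and the mitochondrial formyltransferase, 3 were in the tables. Gatc, a subunit of the amidotransferase, rose by 0.59 ± 0.08 at 16 h (limma adjusted p = 9.78e-08), while Qrsl1 was at 0.17 ± 0.09 (0.135). Of 7 tested genes of the selenocysteine path 3 were higher and none lower in labelled exons at 16 h by limma, with Pstk, the kinase that acts on charged serine tRNA, at 0.37 ± 0.10 (0.0024). Of 14 tested amino acid response genes of the Atf4 pathway, 6 were higher and none lower in labelled exons at 16 h by limma, with a median of 0.04. In total exons 7 were higher and 2 lower (Chac1, Phgdh), beside 26.9% and 29% of all genes. Asns, the asparagine maker, rose by 0.67 ± 0.07 (limma adjusted p = 1.42e-09), Shmt2, of mitochondrial serine metabolism, by 0.53 ± 0.07 (2.29e-07) and Psat1, of serine synthesis, by 0.40 ± 0.06 (2.11e-06). Atf4 itself was at 0.07 ± 0.06 (0.37).

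Several synthetase genes were not called at 1, 4 or 16 h in either exon table. They were Nars, Sars, Tars, Wars and Yars among cytosolic genes and Aars2, Hars2, Iars2, Lars2, Rars2, Tars2 and Vars2 among mitochondrial ones. Yars, the cytosolic tyrosine enzyme, ran from -0.04 to 0.13 over the 10 times in labelled exons, whereas its mitochondrial counterpart Yars2 ran from 0.13 to 0.70. Cytosolic Nars stayed between -0.03 and 0.11, and Nars2 ran from 0.02 to 0.77. A p that misses the threshold does not show that a gene did not change.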

How the data were processed

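The series holds 33 labelled and 33 total RNA libraries, 3 for each of 11 times, grouped by their titles. Per the submitters' processing notes, TopHat2 2.0.8, TopHat and mm9 were used. Counting tool, annotation and strand: not given in the sources used here. Those tables that the authors deposited as counts hold whole numbers that had been rescaled, and were handled as a score without a count model. In 13 of the 66 libraries some small whole numbers (2 to 28) occurred at under 20% of the rate of their neighbours. Deposited RPKM follow from these numbers by 1 constant per gene, to within 0.68% for values over 500.

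Within a table, libraries were scaled by trimmed means of log ratios (30% of ratios and 5% of levels trimmed at each end). Genes reaching 10 in 3 or more libraries were fitted as log2(value + 1) with limma 3.58.1 (R 4.3.3), with a variance trend, 1 mean per time and Benjamini-Hochberg adjustment over all genes. Changes in labelled and total exons were compared as an interaction over 66 libraries. The script was tested on simulated data. Positions and overlaps are from GENCODE M1 (mm9) and promoters from RefSeq (GRCm38.p6).

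The members and gene lists were chosen with earlier results of these data known. Library values are given, by rule, for up to 4 genes per class with the largest called rise in labelled exons at 16 h (mean of at least 50), for all called lower there at 4 h or 16 h, and for those whose labelled and total changes differ at 16 h (none). Other lists name up to 3 genes by smallest p in labelled exons at 16 h. Lars2, Rars, Hars, Iars, Vars, Tars, Wars2, Yars, Nars and Atf4 were added after their values were seen. The results of 1 mitochondrial gene are not reported here by name; it stays in the counts and medians. No spike-in is given, so a change shared by all RNA would go unseen. Alternatives were other scalings, a pseudocount of 10, RPKM values, no filter, no variance trend, a replicate block, also within each time, and omission of each library.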

Additional observations from a re-analysis of the deposited data

Results flagged for a closer look

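The change at 16 h differed from the change at 4 h in labelled exons for the 5 synthetase genes given here, by limma's test of the difference between the times. Kars differed by 0.23 (adjusted p = 0.00326), with changes against 0 min of 0.22 at 4 h and 0.45 at 16 h. Eprs differed by 0.23 (0.00849), Farsb by 0.27 (0.0124) and Iars by 0.16 (0.0495). The mitochondrial gene Sars2 differed by 0.37 (0.0175). All 5 were higher at 16 h. The call of Kars stood in every omission of 1 library, and those of the other 4 ended in at least 1. Eprs ended without 4 h replicate 2 (adjusted p = 0.0655) and Farsb without 16 h replicate 3 (0.0989). Sars2 ended without replicate 3 of 4 h (0.109) or 16 h (0.06). Iars ended in 5 of 6 omissions, all but 16 h replicate 2 (0.0572 to 0.212). It also ended without further scaling (0.075).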

How the results depend on the processing

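No call of a single gene changed direction under the alternatives run. Of these 186 calls, 25 ended without further scaling, 22 with each RPKM version, 7 with library sums and 3 without the variance trend. A pseudocount of 10 ended 1, the replicate block 1 and dropping the filter 0. Leaving out 1 library ended 64 of the 186 at least once. The balance of rises to falls did turn in some of the counts below. True depth is unknown, so no counting error can be given.

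Counts of called genes that moved by over 1.5 times are given here with the value under the alternative. With scaling by library sums, labelled exons gave 1 cytosolic rise, 2 cytosolic falls and 7 mitochondrial falls at 1 h, 1 mitochondrial fall at 4 h and 7 cytosolic rises from 4 h to 16 h. It gave 4 mitochondrial falls in total exons at 1 h. In labelled introns it gave 4 cytosolic falls at 20 min, 2 at 1 h, 0 at 4 h and 0 at 16 h, and at 16 h 12 cytosolic rises, 7 mitochondrial rises and 1 mitochondrial fall. The intron to exon ratio had 2 calls at 4 h. Without further scaling there was 1 cytosolic rise in labelled exons at 1 h and 1 at 4 h, 2 mitochondrial falls at 16 h, 0 cytosolic rises in total exons at 1 h and 1 at 4 h. Cytosolic falls were then 0 in labelled introns at 20 min and 4 h and 2 in total introns at 1 h, and the ratio had 0 calls at 1 h and 4 h. RPKM plus 0.1 and RPKM plus 1 both gave 1 cytosolic rise at 1 h and 1 at 4 h and 5 mitochondrial falls at 1 h in labelled exons, 0 and 1 cytosolic rises in total exons at 1 h and 4 h, 0 cytosolic falls in labelled introns at 20 min and 4 h and 2 in total introns at 1 h. RPKM plus 1 also gave 4 mitochondrial rises in labelled introns at 4 h. A pseudocount of 10 gave 1 mitochondrial fall in labelled exons at 4 h.

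Replicate numbers were not taken as pairs, since same-numbered libraries correlated between -0.24 and 0.23 in their deviations. The replicate block gave 5 cytosolic rises and 5 mitochondrial falls at 1 h, 1 mitochondrial fall at 4 h and 7 cytosolic rises from 4 h to 16 h in labelled exons, and 2 mitochondrial rises in total introns at 1 h. Every library correlated best with its own number in total exons at 4 h and 16 h and in total introns at 4 h, a hint from the data and not the design. The same held between labelled and total exons at 0 min, 1 h, 4 h and 16 h, with correlations of 0.04 to 0.18. With a replicate block within each time, chosen after seeing the data, the test of labelled against total change gave 0 calls at 1, 4 and 16 h by limma, with 6, 1 and 0 genes at an unadjusted p under 0.05.

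Leaving out 1 library gave these ranges. In labelled exons cytosolic rises were 1 to 3 at 1 h, 2 to 4 at 4 h, 6 to 8 at 16 h and 2 to 6 from 4 h to 16 h, and cytosolic falls 0 to 1, 1 to 3 (against 4 with all libraries) and 1 to 2 at 1, 4 and 16 h. Mitochondrial rises were 1 to 2 at 1 h and 1 to 2 from 4 h to 16 h, and falls 1 to 2 at 4 h and at 16 h. In total exons cytosolic rises were 0 to 1, 1 to 4 and 7 to 11 at 1, 4 and 16 h, and falls 1 to 2 at 4 h. In labelled introns cytosolic falls were 0 to 1 at 20 min, 1 to 2 at 1 h, 0 to 1 at 4 h and 0 to 2 at 16 h, mitochondrial rises 2 to 4 at 4 h, and mitochondrial falls 5 to 8 at 1 h, 1 to 3 at 4 h and 1 to 2 at 16 h. In total introns cytosolic falls were 0 to 1, 1 to 3 and 2 to 5 at 1, 4 and 16 h, and mitochondrial rises 1 to 2 at 1 h and 3 to 5 at 16 h. Labelled against total exons had 0 to 1 calls at 1 h, and the ratio 0 to 2 at 1 h and 0 to 1 at 4 h. The cause of these moves was not tested.

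Over all genes the split of higher to lower calls also moved. In labelled exons at 1 h it was 1586 to 1085, but 1230 to 1575 with library sums and 1158 to 1252 with RPKM plus 1. At 4 h it was 2233 to 2162, but 1669 to 2584 without further scaling, 1680 to 2592 with RPKM plus 0.1 and 1683 to 2647 with RPKM plus 1. From 4 h to 16 h it was 1173 to 1370, but 1329 to 1021 with RPKM plus 1. In total exons at 1 h it was 601 to 399, but 477 to 576 with library sums, and at 4 h 2263 to 2239, but 1714 to 2834 without further scaling, 1708 to 2844 with RPKM plus 0.1 and 1700 to 2867 with RPKM plus 1. In labelled introns it was 1920 to 1535 at 20 min and 2883 to 2646 at 16 h, but 1579 to 1921 and 4115 to 1914 with library sums. In total introns at 1 h it was 2331 to 2289, but 1744 to 2831 without further scaling, 1693 to 2763 with RPKM plus 0.1 and 1658 to 2755 with RPKM plus 1.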
